A study of Mus musculus with 6 samples.

Results

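Leukocyte marker genes were followed in hearts labelled as knockout, of the gene Cenpf, and in wild-type hearts. Cenpf encodes a large kinetochore protein that binds microtubules. The members were 49 genes listed as markers of monocytes and macrophages (28), T cells (6), B cells (5), granulocytes and mast cells (5) and natural killer (NK) cells (2), with Ptprc, which encodes the CD45 antigen of all leukocytes, and the secreted proteins Lbp and Cxcl13. A member was measured by the probe whose annotation gave its symbol and no other, which held for 47 of the 49, among 19938 genes on the array measured this way by 21789 probes. Ly6c2 and Lck had no such probe, so their levels were not analysed here. Each of these 47 members had 1 probe. RNA came from the hearts of 3 wild-type mice and 3 Cenpf knockout mice, all 12 months old and untreated, with 1 Affymetrix mouse gene array per heart. Hearts are numbered below by the replicate number of the labels, which call them biological replicates. The part of Cenpf that was deleted, the cells in which it was deleted, the strain, the sex and the part of the heart taken are unknown here.

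Leukocytes are a minority of the cells of a heart. Most of them are macrophages, which live among the cardiomyocytes, engulf debris and dying cells and secrete complement and chemokines. Some of these macrophages descend from embryonic precursors, and others are replenished by monocytes that enter from the blood through the chemokine Ccl2 and its receptor Ccr2. In a sample of whole tissue, fewer cells of a type and less RNA per cell cannot be told apart, and for every gene below the value is a level over all cells of the sample.

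The tissue label was checked with 10 cardiomyocyte genes, whose log2 values lay between 11.63 and 14.26 on all 6 arrays. Actc1, the cardiac actin gene, read 14.20, 14.22 and 14.11 in the wild-type and 14.21, 14.26 and 14.16 in the knockout hearts. A background level of 6.35 was set from probes of olfactory and vomeronasal receptor genes, taken as silent in heart. Of the 47 members, 34 lay above it on all 6 arrays and 4 on none, the latter Itgax, Cd3d, Cd79a and Klrd1. Cenpf itself differed by -2.07 on the log2 scale (standard error 0.21, limma, adjusted p = 0.0286), and its knockout values of 6.35, 6.10 and 6.68 lay below all 3 wild-type values, of which the lowest was 8.04. An exact two-sided permutation test of these 6 values gave p = 0.1, the smallest that 3 hearts against 3 allow. Knockout hearts 1 and 2 lay below the background level for Cenpf, which limits how far the size of its difference can be read.

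No member of the leukocyte list passed the test between knockout and wild-type hearts. At an adjusted p under 0.05 (limma, Benjamini-Hochberg over 21789 probes) 0 of the 47 members were called, where 0.0275% of all probes were. At an unadjusted p under 0.05 there were 7 members, which is 14.9% against 9.9% of all probes. Mertk, Blnk and Lbp were the 3 higher ones (4.66% of all probes were higher) and Cd14, Plac8, Cx3cr1 and Ccl2 the 4 lower ones (5.24% of all probes were lower). An unadjusted p under 0.01 with at least a 1.5-fold difference was found for Cd14, Plac8 and Lbp, 3 of 47 or 6.38%, against 0.854% of all probes. Groups that did not overlap, with every knockout value above or below every wild-type value, were found for 6 members (12.8%), against 14.8% of all probes. These 6 were Lbp and Blnk on the higher side (7.33% of all probes) and Cd14, Plac8, Cx3cr1 and S100a8 on the lower side (7.47% of all probes). The shares by unadjusted p alone and by overlap lay near those of the array as a whole. The genes were listed with results of these hearts known, so none of these shares is support for a difference. Of the 47 members 28 read lower (59.6%), against 52.1% of all probes, and the median difference was -0.060 against -0.0082 over all probes.

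**Figure D1:**
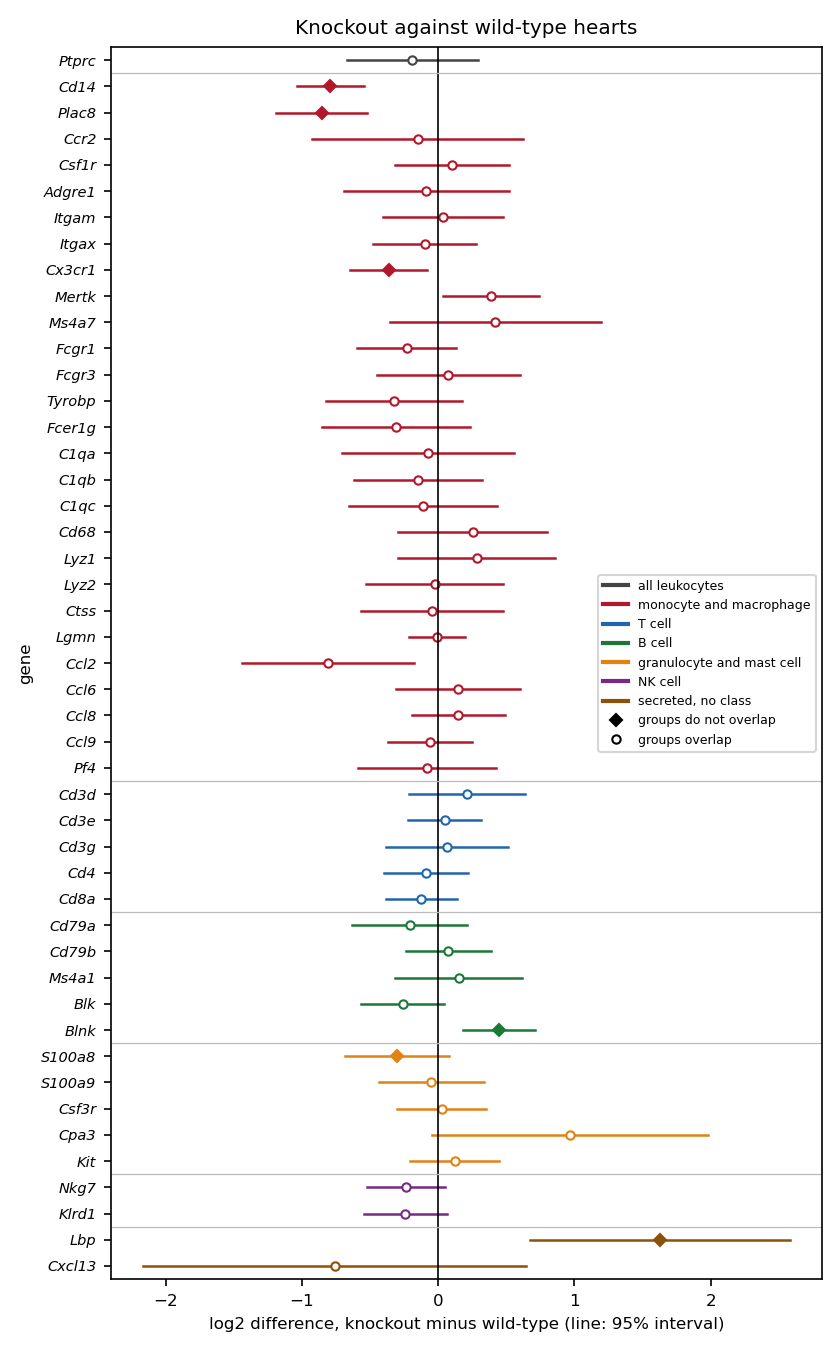
Difference between knockout and wild-type hearts on the log2 scale for the 47 measured members (x axis, line: 95% interval of the limma fit), with the genes on the y axis coloured by class. Filled diamonds mark the 6 members whose groups did not overlap, from Plac8 at -0.86 to Lbp at 1.63, and the intervals of 7 members exclude 0.

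Most monocyte and macrophage genes were high and low in the same hearts, and these crossed the genotypes. Knockout heart 1 held the highest value of 20 of the 27 measured members of this class (74.1%), where it held the highest value of 18.8% of all probes. The lowest value came from knockout heart 2 for 15 of them (55.6%, against 17.7% of all probes) and from wild-type heart 1 for 10 (37%, against 15.4% of all probes). The mean level of the class, with each gene centred on its mean over the 6 hearts, in log2 units was -0.17, 0.12 and 0.20 in the wild-type and 0.34, -0.34 and -0.15 in the knockout hearts. Its group means were 0.05 ± 0.20 and -0.05 ± 0.35 (SD, n = 3), so the spread within each group was larger than the difference between them. For 22 of the 27 genes the difference between the groups was smaller than the range within the wild-type and within the knockout group. The class read 18 lower and 9 higher with a median difference of -0.074, which was -0.28 without knockout heart 1 and 0.11 without knockout heart 2. Without knockout heart 1, 22 of the 27 read lower, and without knockout heart 2, 9 did. Ptprc was high in the same hearts, wild-type heart 3 and knockout heart 1, and lowest in knockout heart 2, with 7.93, 8.08 and 8.49 in the wild-type and 8.41, 7.72 and 7.81 in the knockout hearts, a difference of -0.19 (95% interval -0.67 to 0.29).

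**Figure D2:**
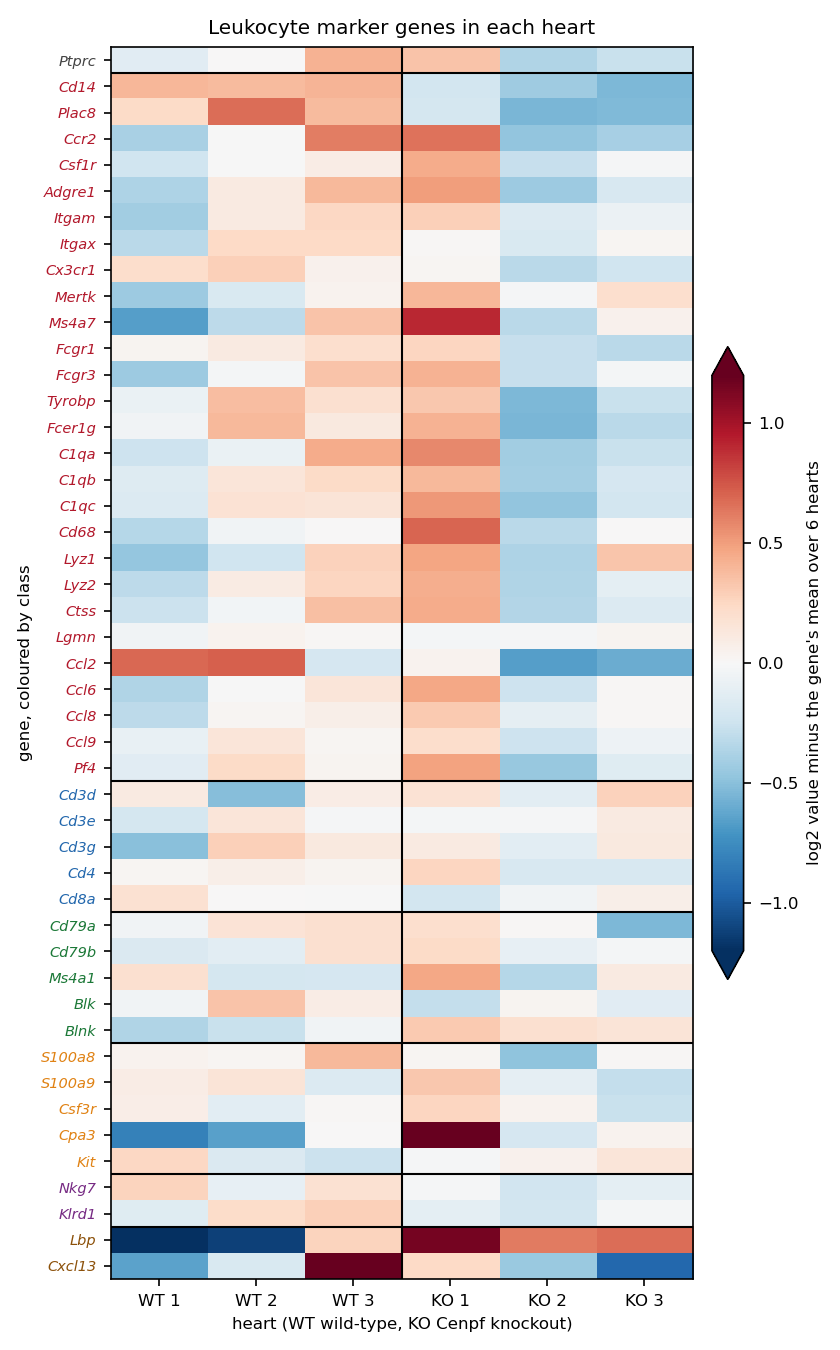
Log2 value of each of the 47 measured members in each of the 6 hearts (columns) minus the gene's mean over the hearts, with gene names coloured by class and black lines between classes. The red column of knockout heart 1 and the blue column of knockout heart 2 run through most macrophage genes, while Cd14 and Plac8 are lower in all 3 knockout columns than in the wild-type columns.

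The complement and lysosome genes show these values gene by gene. C1qa, C1qb and C1qc encode the chains of C1q, which starts the classical complement pathway. The values of C1qc were 10.53, 10.87 and 10.85 in wild-type hearts 1, 2 and 3 and 11.21, 10.23 and 10.47 in knockout hearts 1, 2 and 3. Knockout heart 1 was the highest and knockout heart 2 the lowest, so the knockout group spanned the whole wild-type range. The 3 C1q genes differed by -0.074, -0.15 and -0.11, and for C1qc the 95% interval ran from -0.66 to 0.43. Lyz2, the lysozyme of macrophages, read 11.55, 11.96 and 12.12 in the wild-type and 12.30, 11.51 and 11.74 in the knockout hearts, a difference of -0.026 (95% interval -0.53 to 0.48) whose sign changed with quantile normalization. Its neighbour Lyz1, a lysozyme of Paneth cells whose sequence is close to that of Lyz2, differed by 0.28. How far the probes of these copies keep their transcripts apart was not tested. Cd68, a glycoprotein of the lysosome membrane, read 9.26, 9.56 and 9.60 in the wild-type and 10.30, 9.28 and 9.61 in the knockout hearts. Knockout heart 1 lay above the other 5, and the difference of 0.26 was -0.029 without it. The cysteine proteases of the lysosome were Ctss (cathepsin S), which differed by -0.046, and Lgmn (legumain). Lgmn did not vary with the class: its 6 values lay between 10.70 and 10.78, and it differed by -0.006 (95% interval -0.21 to 0.20), with a sign that depended on the normalization.

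Among the surface receptors, the widely used macrophage markers Csf1r and Adgre1 ranked the hearts in the same order as the mean level of the class. Csf1r, the receptor for the growth factor that keeps macrophages alive, read 9.43, 9.67 and 9.75 in the wild-type and 10.11, 9.39 and 9.66 in the knockout hearts and differed by 0.10 (95% interval -0.32 to 0.52). Adgre1, which encodes the macrophage antigen F4/80, read 8.80, 9.28 and 9.56 in the wild-type and 9.67, 8.73 and 8.98 in the knockout hearts and differed by -0.085. In both, knockout heart 1 was the highest. Itgam and Itgax, the integrin chains CD11b and CD11c, differed by 0.038 and -0.10. Ms4a7, a membrane protein of macrophages, had the widest spread of the receptors, with 6.50, 6.84 and 7.50 in the wild-type and 8.06, 6.83 and 7.20 in the knockout hearts, and its difference of 0.42 was 0.072 without knockout heart 1.

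Mertk and Cx3cr1 were the surface receptors with an unadjusted p under 0.05, in opposite directions. Mertk, the receptor tyrosine kinase with which macrophages take up dying cells, read 7.40, 7.65 and 7.87 in wild-type hearts 1, 2 and 3 and 8.23, 7.81 and 8.03 in knockout hearts 1, 2 and 3. The knockout values lay above wild-type hearts 1 and 2, and knockout heart 2 lay below wild-type heart 3. Its difference was 0.39 ± 0.15 (standard error; limma, adjusted p = 0.483, unadjusted p = 0.0352). Cx3cr1, the fractalkine receptor of patrolling monocytes and part of the tissue macrophages, read 8.52, 8.60 and 8.37 in wild-type hearts 1, 2 and 3 and 8.33, 7.99 and 8.08 in knockout hearts 1, 2 and 3. All 3 knockout values lay below the wild-type ones, with wild-type heart 3 (8.366) and knockout heart 1 (8.335) as the nearest pair. This gap was small: the groups overlapped once array medians were subtracted. They also overlapped when Cx3cr1 was read relative to the mean of the macrophage genes in the same heart. It differed by -0.36 ± 0.12 (standard error; limma, adjusted p = 0.454, unadjusted p = 0.0174).

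Cd14 and Plac8, counted here with the genes of entering monocytes, had the smallest p-values of all 47 members. Cd14, the surface protein that hands lipopolysaccharide to its receptor, read 8.13, 8.11 and 8.14 in wild-type hearts 1, 2 and 3 and 7.51, 7.30 and 7.19 in knockout hearts 1, 2 and 3. The wild-type hearts lay within 0.029 of each other, and the highest knockout value, 7.51, lay below the lowest wild-type value, 8.11. The group means were 8.13 ± 0.016 and 7.34 ± 0.16 (SD, n = 3), a difference of -0.79 ± 0.11 (standard error), or a 0.579-fold level in the knockout hearts (limma, adjusted p = 0.110). It was the 11th smallest p-value of the 21789 probes and did not pass. It passed without wild-type heart 3 (adjusted p = 0.0403), without that heart and knockout heart 1 together (adjusted p = 0.0424), with array weights (adjusted p = 0.0343) and with a trend and robust variance model (adjusted p = 0.0392), within a range of 0.0343 to 0.483 over its 16 alternatives. The difference itself stayed between -0.88 and -0.72 in all of them.

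Plac8, a small cysteine-rich protein of myeloid cells, read 6.41, 6.86 and 6.57 in wild-type hearts 1, 2 and 3 and 5.97, 5.64 and 5.66 in knockout hearts 1, 2 and 3. Every wild-type value lay above the background level of 6.35 and every knockout value below it, so its level in knockout hearts has only an upper bound. The fitted difference was -0.86 ± 0.15 (standard error; limma, adjusted p = 0.200), and measured against the background level it was at least 0.26. Over 15 alternatives it lay between -0.99 and -0.73, with an adjusted p from 0.0611 to 0.631. Ccr2, the receptor through which monocytes are drawn out of the blood, read 5.77, 6.16 and 6.78 in the wild-type and 6.81, 5.69 and 5.76 in the knockout hearts. It lay above the background level only in wild-type heart 3 and knockout heart 1, and with both group means below that level no difference can be read for it.

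Beside these values stand those of the blood. Of 6 erythrocyte genes 5 were measured. Alas2, Slc4a1 and Epb42 were higher in the knockout hearts without overlap, 60% of the 5 against 7.33% of all probes. Epb42 lay above the background level in only 1 heart. Hemgn and Rhag differed by -0.16 and -0.006, and Rhag lay below that level in every heart. The centred mean level of the 5 genes was -0.28, -0.18 and -0.011 in the wild-type and 0.27, 0.14 and 0.059 in the knockout hearts. It was higher in every knockout heart than in any wild-type heart. Alas2, which makes the first enzyme of haem synthesis in red cells, read 9.02, 9.42 and 9.94 in the wild-type and 10.55, 10.24 and 10.22 in the knockout hearts. The part of blood in the Cd14 and Plac8 values was not tested.

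**Figure D3:**
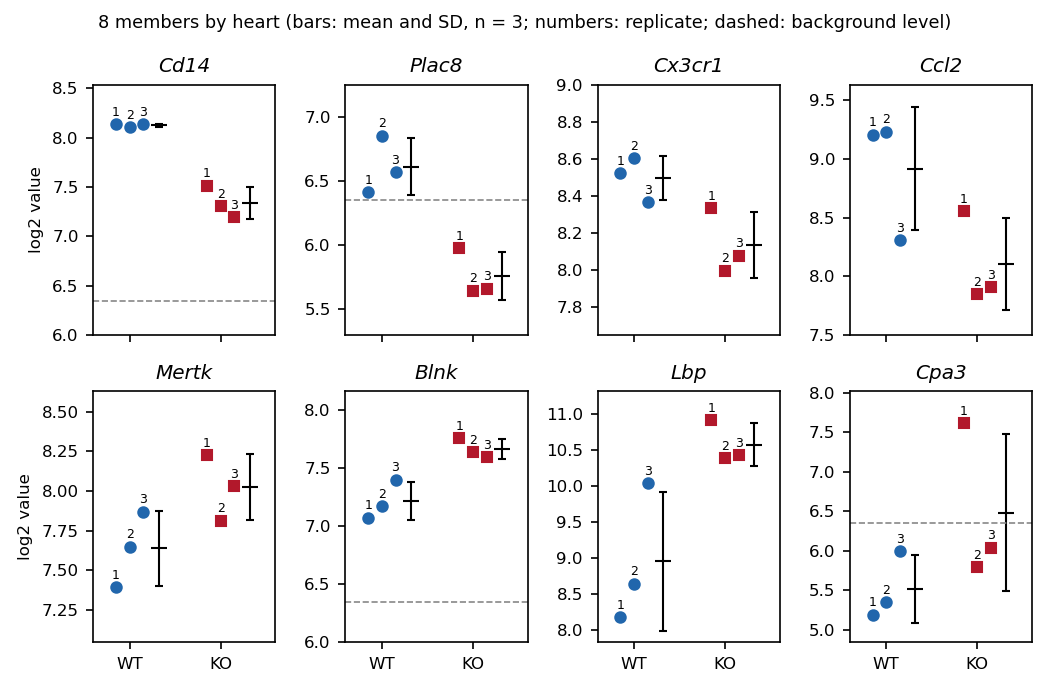
Log2 values (y axis) of 8 members in the 3 wild-type (blue circles) and 3 knockout hearts (red squares), numbered by replicate, with the mean and SD as black bars and the background level of 6.35 as a dashed line where it is in range. Cd14, Plac8 and Cx3cr1 are lower and Blnk and Lbp higher in all 3 knockout hearts, while the mean of Cpa3 is raised by knockout heart 1 at 7.62.

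Of the 5 chemokines of the class, Ccl2 had the largest difference. Ccl2, which attracts monocytes, read 9.20, 9.23 and 8.31 in wild-type hearts 1, 2 and 3 and 8.55, 7.85 and 7.91 in knockout hearts 1, 2 and 3. Wild-type hearts 1 and 2 were the highest, and knockout heart 1 lay above wild-type heart 3, so the groups overlapped. It differed by -0.81 ± 0.28 (standard error; limma, adjusted p = 0.455, unadjusted p = 0.0182). Leaving out wild-type heart 3 moved the difference to -1.11 (adjusted p = 0.0700), and leaving out that heart and knockout heart 1 together, an alternative chosen after the values were seen, moved it to -1.33 (adjusted p = 0.0206). The same 3 highest hearts appear in the fibroblast genes, whose centred level was 0.16, 0.29 and -0.22 in the wild-type and 0.26, -0.30 and -0.20 in the knockout hearts. Their part in the Ccl2 values was not tested. The chemokines Ccl6, Ccl8 and Ccl9 differed by 0.15, 0.15 and -0.06. Ccl8 lay above the background level only in knockout heart 1. Pf4, a chemokine of platelets and of some macrophages, read 9.60, 9.97 and 9.77 in the wild-type and 10.22, 9.29 and 9.59 in the knockout hearts and differed by -0.081.

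Of the 4 Fc receptor and adaptor genes, 3 read lower and Fcgr3 higher, with 0 at an unadjusted p under 0.05 and 0 without overlap. Tyrobp and Fcer1g encode the adaptors that carry the signal of many activating receptors, Fcgr3 among them. Tyrobp read 9.22, 9.68 and 9.50 in the wild-type and 9.63, 8.77 and 9.04 in the knockout hearts, and Fcer1g 10.09, 10.53 and 10.26 in the wild-type and 10.56, 9.59 and 9.81 in the knockout hearts. Knockout heart 1 lay within the upper part of the wild-type range or above it in both, and knockout hearts 2 and 3 lay below all wild-type hearts. They differed by -0.32 (95% interval -0.82 to 0.18) and -0.31 (95% interval -0.85 to 0.24), and by -0.57 and -0.59 without knockout heart 1. Fcgr1, the high-affinity receptor for immunoglobulin G, differed by -0.23 and Fcgr3 by 0.075. Fcgr2b, the inhibitory receptor for immunoglobulin G, from a further list, differed by 0.47, with its highest value in knockout heart 1.

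Each macrophage gene was also read relative to the mean of the 27 in the same heart. That mean, with Cd14, Plac8 and Ccl2 in it, itself differed by -0.10 between the groups. Every difference is therefore 0.10 higher on this scale than in the fit. On this scale 8 of the 27 had groups that did not overlap. Cd14 and Tyrobp were lower in the knockout hearts, with differences of -0.69 and -0.22, and Csf1r, Ccl6, Cd68 and Mertk were higher, with differences of 0.20, 0.25, 0.36 and 0.49. The others were Plac8, lower, and Ccl8, higher, for which no size is given since Plac8 lay below the background level in every knockout heart and Ccl8 in 5 of 6 hearts. Over all probes the same subtraction left 3.11% without overlap. That share is no fair measure for these 27, since subtracting their own mean removes what they share and adds it to every other probe. The subtraction was chosen after the values were seen and carries no test.

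**Figure D4:**
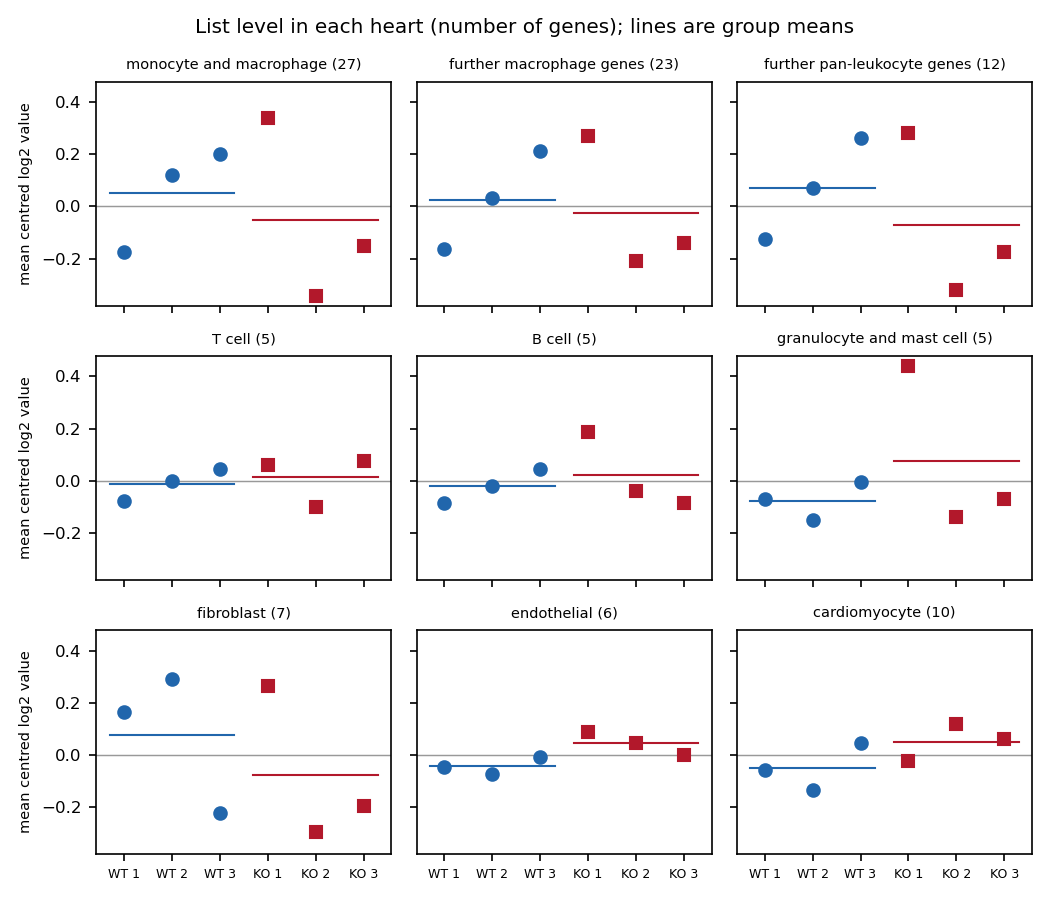
Mean log2 value of each list in each heart after centring every gene on its mean over the 6 hearts (y axis), for wild-type hearts (blue circles) and knockout hearts (red squares), with the number of genes in brackets and lines at the group means. The 27 macrophage members and 2 further lists of 23 macrophage and 12 pan-leukocyte genes all have knockout heart 1 highest and knockout heart 2 lowest.

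The promoters of a few members are shown because these genes represent the patterns above: Plac8 and Cx3cr1 without overlap between the groups, C1qb and C1qc, which lie close together on chromosome 4 and were highest and lowest in the same hearts, and the mast cell gene Cpa3. They are the 250 bases before the start of the transcript, 5′ to 3′ on the strand of the gene (the minus strand for all 5), from RefSeq on GRCm38.p6. Plac8 has 2 such windows, of which the first is shown. The windows lie at chr5:100572206-100572455 for Plac8, chr9:120068297-120068546 for Cx3cr1, chr4:136886201-136886450 for C1qb, chr4:136892915-136893164 for C1qc and chr3:20242182-20242431 for Cpa3. Capitals mark, on either strand, 3 motifs: GAGGAA, a core bound by PU.1 and other ETS factors; TGTGGT, bound by RUNX factors; and TATAAA, the TATA box. PU.1 is a transcription factor that myeloid cells need for their development.
Plac8: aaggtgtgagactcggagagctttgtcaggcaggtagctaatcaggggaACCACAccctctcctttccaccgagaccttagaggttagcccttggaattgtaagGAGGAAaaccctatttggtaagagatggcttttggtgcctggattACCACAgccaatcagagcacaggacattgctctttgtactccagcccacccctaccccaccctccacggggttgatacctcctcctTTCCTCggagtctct
Cx3cr1: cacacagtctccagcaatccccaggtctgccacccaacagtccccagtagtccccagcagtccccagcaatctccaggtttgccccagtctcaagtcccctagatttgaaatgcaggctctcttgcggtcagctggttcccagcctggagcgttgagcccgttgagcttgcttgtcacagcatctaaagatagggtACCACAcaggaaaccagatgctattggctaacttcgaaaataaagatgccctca
C1qb: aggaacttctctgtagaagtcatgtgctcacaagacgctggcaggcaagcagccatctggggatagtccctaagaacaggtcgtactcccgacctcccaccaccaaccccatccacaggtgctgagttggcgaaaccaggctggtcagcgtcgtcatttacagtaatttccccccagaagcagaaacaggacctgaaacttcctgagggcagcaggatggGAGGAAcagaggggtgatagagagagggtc
C1qc: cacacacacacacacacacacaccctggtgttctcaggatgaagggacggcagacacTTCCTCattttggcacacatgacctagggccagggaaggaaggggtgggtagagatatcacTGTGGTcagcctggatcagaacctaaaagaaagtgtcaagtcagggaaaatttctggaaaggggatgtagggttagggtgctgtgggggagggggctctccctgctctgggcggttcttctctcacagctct
Cpa3: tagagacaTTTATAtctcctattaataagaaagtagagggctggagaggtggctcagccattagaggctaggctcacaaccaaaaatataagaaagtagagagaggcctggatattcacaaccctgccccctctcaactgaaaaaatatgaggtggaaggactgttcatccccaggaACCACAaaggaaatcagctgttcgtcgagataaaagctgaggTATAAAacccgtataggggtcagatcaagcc

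In the Plac8 window shown GAGGAA lies 146 bases before the start and its reverse complement 15 bases before it, and the reverse complement of TGTGGT lies at 201 and 101 bases. The second Plac8 window holds none of the marked motifs. The C1qb window holds 1 match, to GAGGAA at 30 bases. The C1qc window holds the reverse complement of GAGGAA at 193 and TGTGGT at 132 bases. The Cx3cr1 window holds 1 match, to the reverse complement of TGTGGT at 54 bases. Cpa3 has TATAAA at 31 bases, its reverse complement at 242 and that of TGTGGT at 73 bases. Promoters of 37 of the 49 listed members were in the table, with 45 windows in all, Ly6c2 and Lck among them. GAGGAA occurred on either strand in 51.1% of these windows, against 23.3% of all 32851 windows of the same length. TGTGGT occurred in 26.7% against 14%, and TATAAA in 17.8% against 12.4%. TTGCNNAA, the core of C/EBP sites, occurred in 20% against 9.56% and the GC box GGGCGG in 24.4% against 32.7%. These are shares of windows that hold the letters, and in the windows shown no 2 matches share a base.

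No measured T cell member had groups without overlap. Cd3d, Cd3e and Cd3g encode chains of the CD3 complex that carries the signal of the T cell receptor, and Cd4 and Cd8a the coreceptors of helper and cytotoxic cells. Cd3e, the only CD3 gene above the background level in every heart, read 7.05, 7.41 and 7.25 in the wild-type and 7.24, 7.25 and 7.37 in the knockout hearts, a difference of 0.05 (95% interval -0.22 to 0.32). Cd3d lay below the background level in every heart. Cd3d and Cd3g differed by 0.21 and 0.066, Cd4 by -0.088 and Cd8a by -0.12. None of the 5 had an unadjusted p under 0.05, their median difference was 0.050, and most of the values lay near the background level.

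Of the 5 B cell genes, Blnk alone had an unadjusted p under 0.05. Blnk, the linker protein downstream of the B cell receptor, read 7.07, 7.17 and 7.40 in wild-type hearts 1, 2 and 3 and 7.76, 7.63 and 7.59 in knockout hearts 1, 2 and 3. Every knockout value lay above every wild-type value, and the difference was 0.45 ± 0.11 (standard error; limma, adjusted p = 0.368, unadjusted p = 0.00426). Its adjusted p lay between 0.0733 and 0.788 over 16 alternatives, and its difference between 0.38 and 0.54. Cd79a and Cd79b, the signalling chains of the B cell receptor, differed by -0.21 and 0.074, Ms4a1 (CD20) by 0.15 and the B cell kinase gene Blk by -0.26. Cd79a lay below the background level in every heart and Ms4a1 above it only in knockout heart 1. Blnk is also made by macrophages.

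The granulocyte genes had intervals that include 0. S100a8 and S100a9 encode the 2 chains of calprotectin, an abundant protein of neutrophils. S100a8 read 6.284, 6.270 and 6.636 in the wild-type and 6.266, 5.760 and 6.255 in the knockout hearts. The groups were parted by 0.004 at the nearest pair, and only wild-type heart 3 lay above the background level. The fitted difference was -0.30 (95% interval -0.69 to 0.08), and with 1 heart above that level no size can be read from it. S100a9 differed by -0.048 and Csf3r, the receptor for the granulocyte growth factor, by 0.027. Kit, the receptor for stem cell factor on mast cells, differed by 0.12.

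The mast cell protease gene Cpa3 was high in a single heart. Cpa3, carboxypeptidase A of mast cell granules, read 5.189, 5.350 and 5.998 in wild-type hearts 1, 2 and 3 and 7.617, 5.792 and 6.039 in knockout hearts 1, 2 and 3. Only knockout heart 1 lay above the background level of 6.35, and the other 5 hearts ranged from 5.19 to 6.04. The difference was 0.97 ± 0.44 (standard error; limma, adjusted p = 0.518). Without that heart every value lay below the background level. All wild-type values lay below the background level, as did knockout hearts 2 and 3, so no size can be read for the difference between the groups. Other mast cell genes, from a further list, did not all follow it. The proteases had their highest value in knockout heart 1: Mcpt4 read 5.48, 5.43 and 5.64 in the wild-type and 6.89, 5.69 and 5.88 in the knockout hearts, and Tpsb2 6.45, 6.29 and 6.35 in the wild-type and 7.14, 6.54 and 6.46 in the knockout hearts. Both had groups that did not overlap, Mcpt4 with 1 heart above the background level, and neither passed (adjusted p = 0.504 and 0.546). Cma1, also a mast cell protease gene, was highest in knockout heart 1 too, but its groups overlapped. Its fitted difference was 0.022, and it lay below the background level in every heart. Hdc, which makes histamine, was above the background level in all 6 hearts and had its lowest value in knockout heart 1, with 7.36, 7.70 and 7.28 in the wild-type and 6.96, 7.46 and 7.26 in the knockout hearts. Kit was highest in wild-type heart 1. Fcer1a and Ms4a2, chains of the mast cell receptor for immunoglobulin E, lay below the background level in every heart.

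The NK cell genes Nkg7, a protein of cytotoxic granules, and Klrd1, the receptor chain CD94, differed by -0.24 (95% interval -0.52 to 0.049) and -0.24 (95% interval -0.55 to 0.067). Their centred mean level was 0.06, 0.063 and 0.23 in the wild-type and -0.063, -0.23 and -0.068 in the knockout hearts, with no overlap, though neither gene alone was without overlap and Klrd1 lay below the background level in every heart. The 10 further NK cell genes, 7 of them below that level in every heart, had overlapping centred levels of 0.11, 0.16 and -0.16 in the wild-type and 0.084, -0.082 and -0.11 in the knockout hearts.

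Lbp had the largest difference of the 47 members. Lbp is the plasma protein that binds lipopolysaccharide and delivers it to CD14, and it is made mainly by the liver. It read 8.18, 8.65 and 10.04 in wild-type hearts 1, 2 and 3 and 10.92, 10.39 and 10.43 in knockout hearts 1, 2 and 3. The knockout hearts lay within 0.53 of each other, while the wild-type hearts spanned 1.86, with wild-type heart 3 near the knockout values. The group means were 8.95 ± 0.97 and 10.58 ± 0.29 (SD, n = 3), a difference of 1.63 ± 0.42 (standard error), or a 3.09-fold level with a 95% interval from 1.59 to 5.98 (limma, adjusted p = 0.368). Without wild-type heart 3 the difference was 2.17 and passed (adjusted p = 0.00808), and without wild-type heart 1 it was 1.24 (adjusted p = 0.604). Without wild-type heart 3 and knockout heart 1 together it also passed (adjusted p = 0.0307). Markers of other tissues that make plasma proteins were read beside it. Hepatocyte genes, with 5 of 6 measured, had centred levels of 0.085, 0.18 and -0.022 in the wild-type and -0.024, -0.033 and -0.19 in the knockout hearts, lower in every knockout heart, with wild-type heart 3 and knockout heart 1 nearly equal. Ahsg, a plasma glycoprotein of the liver and the one of highest mean, read 7.87, 8.30 and 7.75 in the wild-type and 7.58, 7.37 and 6.97 in the knockout hearts, and Alb, the albumin gene, lay between 5.92 and 6.45. The 5 hepatocyte genes did not all go the same way: 3 read lower and 2 higher in the knockout hearts. The higher ones were Alb, by 0.13, and Apoa1, by 0.14. Adipocyte genes, with 5 of 6 measured, had centred levels of 0.58, 0.28 and -0.18 in the wild-type and -0.13, -0.28 and -0.28 in the knockout hearts, highest in the wild-type hearts with the lowest Lbp. Retn, a hormone of fat cells and the one of highest mean, differed by -0.85. The part of these tissues in the Lbp values was not tested.

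Cxcl13, the chemokine that draws B cells into lymphoid follicles, read 6.70, 7.16 and 9.30 in wild-type hearts 1, 2 and 3 and 7.58, 6.90 and 6.40 in knockout hearts 1, 2 and 3. Wild-type heart 3 stood alone at 9.30, and the other 5 hearts lay between 6.40 and 7.58. The difference of -0.76 (95% interval -2.16 to 0.65) became 0.032 without that heart. Ccl19, a chemokine of lymph node stroma, was also highest in wild-type heart 3, with 7.71, 7.63 and 8.41 in the wild-type and 8.16, 8.09 and 8.06 in the knockout hearts. The other measured genes of that list, Glycam1 and Madcam1, also had their highest value there, Glycam1 below the background level. The 5 B cell members had a centred level of 0.045 in that heart, below the 0.19 of knockout heart 1. The 11 further B cell genes had 0.08 there against 0.18 in knockout heart 1, and of these Cd72, Cd22 and, below the background level, Cr2 were highest in wild-type heart 3. All the others of the 11 were highest in a knockout heart. Over all probes, 13.6% had their highest value in wild-type heart 3. The part of lymphoid tissue in the Cxcl13 value was not tested.

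Further genes of the same cells were read from lists that hold no member. Of 23 measured macrophage genes 15 were lower and 8 higher, with 3 at an unadjusted p under 0.05 and 0 called (median difference -0.17). Their centred level was -0.16, 0.032 and 0.21 in the wild-type and 0.27, -0.21 and -0.14 in the knockout hearts, the same order of highest and lowest knockout hearts as among the members. Treml4, a receptor of blood monocytes and splenic macrophages, had the smallest p with 6.33, 6.32 and 6.81 in the wild-type and 6.10, 5.74 and 5.82 in the knockout hearts, a fitted difference of -0.60 (limma, adjusted p = 0.386). Every knockout value lay below the background level, as did wild-type hearts 1 and 2, so no size can be read for this difference. Nr4a3, an orphan nuclear receptor and immediate early gene, differed by 0.64 (adjusted p = 0.464). The third was Ace, the angiotensin-converting enzyme of endothelium and some macrophages, with 9.23, 9.66 and 10.37 in the wild-type and 10.77, 10.25 and 10.35 in the knockout hearts and a difference of 0.70. Of 12 pan-leukocyte genes 8 were lower, with 1 at an unadjusted p under 0.05 and 0 called (median difference -0.15). That gene was Coro1a, an actin-binding protein of leukocytes, with 8.42, 8.31 and 8.41 in the wild-type and 8.23, 7.65 and 7.62 in the knockout hearts and a difference of -0.55 (adjusted p = 0.408). Cd52, a surface peptide of lymphocytes and monocytes, differed by -0.45.

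Among the other lists, 0 genes were called. Of 13 T cell genes 2 had an unadjusted p under 0.05, Cd8b1 with -0.28 and Cd28 with 0.67. Of 11 B cell genes 0 did, and Jchain and Pax5, with the smallest p, differed by 0.18 and 0.23. Of 17 granulocyte and mast cell genes 3 did, among them Ngp with -0.39 and Ly6g with 0.31, both below the background level in every heart, and Mcpt4. Of 10 NK cell genes 1 did, the chemokine gene Ccl5, with 8.20, 8.32 and 8.26 in the wild-type and 8.02, 8.05 and 7.84 in the knockout hearts and a difference of -0.29 (adjusted p = 0.457), while Gzmb differed by 0.17. Over all 95 measured genes of these lists 11.6% had an unadjusted p under 0.05 and 12.6% had groups without overlap, near the 9.9% and 14.8% of all probes. By list, the share without overlap was 0% for B cell and for dendritic cell genes and 23.1% (3 of 13) for T cell genes. It was 35.3% (6 of 17) for granulocyte and mast cell genes, of which 10 lay below the background level in every heart.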

How the data were processed

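Hearts of 3 wild-type and 3 Cenpf knockout mice were measured on Affymetrix mouse gene arrays from biotin-labelled RNA. The deposited log2 values were made by the authors with RMA, which corrects background, normalizes between arrays and summarises probes, and Partek 6.6 is also named, per the submitters' processing notes. Their settings and the genome build were not given in the sources used here. Array medians lay between 6.92 and 6.97, so the log2 values were used as deposited, with no pseudocount or filter.

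Of 35556 probes, 21789 had exactly 1 gene symbol in the array's annotation, 1621 had several and 12146 were unnamed here. The background level was the 95th percentile of the means of 1210 olfactory and vomeronasal receptor probes. Knockout was compared with wild-type in limma 3.58.1 (R 4.3.3, lmFit and eBayes), two-sided. P-values were adjusted by Benjamini-Hochberg over all 21789, and the step was tested on simulated data. Differences are knockout minus wild-type. Lists got counts and medians, without a test. Figures used matplotlib 3.10.9.

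Named were all members, Cenpf, the 2 smallest p-values of each further list, and the gene of highest mean of other cell type lists where it stands beside a result. Ace, Fcgr2b, Cd72, Cd22, Cr2, Glycam1, Madcam1, Mcpt4, Tpsb2, Cma1, Hdc, Fcer1a, Ms4a2, Alb, Apoa1, Slc4a1, Epb42, Hemgn, Rhag and the genes of lipopolysaccharide recognition were named after their values were seen. The members and lists were chosen with earlier results of these data known. Alternatives were other normalizations, filters, tested families, variance models, a replicate block and each array left out. With 3 arrays a group, their number limits the precision.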

Additional observations from a re-analysis of the deposited data

How the results depend on the processing

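The class medians moved by less than the SD of the class level between hearts, pooled over both groups, under every normalization, filter and variance model, though the T cell median turned from 0.050 to -0.019 with dim probes left out and the granulocyte and mast cell median from 0.027 to -0.085 with array weights, both by more than the SD within the wild-type group. The number of probes called in all was 1 when the p-values were adjusted over the whole table, 22 with the trend and robust variance model, 33 with array weights and 11 with the replicate block. Called members, 0 in the fit reported, were 1 with trend and robust variance and 1 with array weights, Cd14 in both. Same-numbered hearts of the groups did not deviate together (correlations -0.11, -0.16 and -0.0031), so the hearts were not taken as paired, and the replicate block called 0 members, with 8 at an unadjusted p under 0.05. With each heart left out in turn, the probes called ranged from 1 to 293 and called members from 0 to 2 (both highest without wild-type replicate 3, the members Cd14 and Lbp), members at an unadjusted p under 0.05 from 5 to 12 and members without overlap from 7 to 18. The highest of the last 2 came without knockout replicate 1, where 11.2% and 31.2% of all probes met the same rules. The median of the T cell genes ranged from -0.061 to 0.070 and that of the B cell genes from -0.042 to 0.14. Without both knockout replicate 1 and wild-type replicate 3, chosen after seeing the data, there were 220 calls, 3 of them members (Cd14, Ccl2 and Lbp), 13 members at an unadjusted p under 0.05 against 20.2% of all probes, 22 without overlap against 51.5%, and a B cell median of -0.11.

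None of the members whose sign changed was called. Lgmn read 0.016, 0.0073 and 0.0077 with array medians subtracted, quantile and cyclic loess normalization, 0.012 with array weights and 0.0096 with both hearts out. Lyz2 read 0.0054 with quantile normalization, and Csf3r -0.085 with array weights and -0.085 with both hearts out, where Csf1r read -0.026 and Ms4a1 -0.11. Leaving out 1 heart gave ranges across 0 for 23 members: Ccr2 -0.51 to 0.12, Cd68 -0.029 to 0.48, Csf1r -0.094 to 0.27, Adgre1 -0.36 to 0.11, Itgam -0.16 to 0.17, Fcgr3 -0.13 to 0.27, C1qa -0.38 to 0.13, C1qb -0.38 to 0.017. Further such ranges were C1qc -0.40 to 0.093, Lyz2 -0.25 to 0.15, Ctss -0.28 to 0.12, Lgmn -0.028 to 0.012, Ccl6 -0.046 to 0.31, Ccl9 -0.18 to 0.048, Pf4 -0.34 to 0.12, Cd3e -0.043 to 0.14. The last were Cd3g -0.17 to 0.22, Cd79a -0.36 to 0.0066, Cd79b -0.022 to 0.19, Ms4a1 -0.042 to 0.36, S100a9 -0.22 to 0.083, Csf3r -0.10 to 0.17, Cxcl13 -1.27 to 0.032. At the median of the receptor probes as background level 46 members lay above it on all arrays. Values near the background level limit what can be read for lymphocyte and granulocyte genes and for Plac8, Ccr2, Itgax and Ccl8.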

Other observations

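Because Lbp read higher and Cd14 lower, the other genes of lipopolysaccharide recognition were looked up after these values were seen. Of 11 genes 10 were measured, 7 higher and 3 lower in the knockout hearts, with 0 at an unadjusted p under 0.05 by limma and a median difference of 0.088. Tlr4, the receptor to which CD14 hands lipopolysaccharide, read 8.10, 8.41 and 8.80 in the wild-type and 8.85, 8.49 and 8.68 in the knockout hearts, a difference of 0.23 (95% interval -0.18 to 0.65). Ly96, the MD-2 protein that holds the lipid on this receptor, differed by 0.15. The 3 lower genes were Tirap, Cd180 and Ly86, which differed by -0.25, -0.15 and -0.27. Myd88 and Irak1, which relay the signal, had groups that did not overlap, 20% of the 10 genes against 14.8% of all probes. Myd88 read 9.14, 9.30 and 9.26 in the wild-type and 9.52, 9.33 and 9.48 in the knockout hearts, a difference of 0.21, and Irak1 read 9.08, 9.13 and 9.11 in the wild-type and 9.27, 9.26 and 9.28 in the knockout hearts, a difference of 0.16.

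Dendritic cell genes gave 5 higher and 4 lower of 9, with 1 at an unadjusted p under 0.05 and 0 called. That gene was Clec9a, a receptor for dead cells on cross-presenting dendritic cells, with a difference of 0.45 and every value below the background level. Cd209a, a lectin of monocyte-derived dendritic cells and macrophages, read 6.37, 6.56 and 7.14 in the wild-type and 8.94, 6.71 and 7.20 in the knockout hearts and differed by 0.92 (adjusted p = 0.572). Knockout heart 1, which also held the highest Cpa3, Mcpt4 and Tpsb2 values, was the highest.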
